A study of Mus musculus with 4 samples.

Results

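The 10 genes described here are widely used to recognise astrocytes, and they were read in 4 mouse cell populations: Gfap, S100b, Aqp4, Aldh1l1, Gja1, Slc1a2, Sparcl1, Clu, Apoe and Mlc1. They were taken as a fixed list of names. All 28 probe sets assigned to them alone were used, of 34945 probe sets with 1 named gene, and they stand for 10 of 18193 genes. The populations were mouse embryonic fibroblasts (MEF), neural stem cells derived from primary tissue (NSC), and neural stem-like cells induced by 13 factors, called iNSC_13F, or by 14 factors, called iNSC_14F. Induction here means that introduced genes turn a cell of another lineage into one that resembles a neural stem cell. By its title the series started from B-lymphocytes and liver cells of adult mice, and the labels do not say which of them, which strain or which clone gave each induced sample. NSC and induced cells grew in N2 medium with EGF and bFGF at 20 ng/ml each and with laminin, per the labels' protocols, and the growth of the fibroblasts is not given there. Each population was read on 1 Affymetrix array, so no value has a replicate error and no test was possible.

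Astrocytes are the glial cells that buffer ions, water and neurotransmitters around neurons and wrap the blood vessels of the brain. They descend from radial glia, the stem cells of the embryonic brain, and share many transcripts with them, so that some astrocyte markers are already present in cultured neural stem cells. Others, Gfap and Aqp4 among them, belong to later stages. EGF and bFGF keep neural stem cells dividing, while cytokines of the LIF and CNTF family, acting through STAT3, and BMPs drive them to become astrocytes.

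The windows around the annotated starts of Mlc1, S100b and Gfap are printed because these genes span the range of outcomes: Mlc1 and S100b were higher on all 3 neural arrays than on the fibroblast array, and Gfap was not. Each window runs from 250 bases before to 50 bases after the start, from RefSeq on GRCm38.p6, and is written 5′ to 3′ on the strand of the gene. That of Mlc1 lies at chr15:88978504-88978803 (minus strand), that of S100b at chr10:76253586-76253885 (plus strand) and that of Gfap at chr11:102897151-102897450 (minus strand). The Mlc1 gene spans chr15:88955884-88982693, so its window surrounds a start inside the gene and not its 5′ end. The windows of S100b and Gfap lie at the 5′ ends of their genes. Capitals mark matches, on either strand, to the STAT motif TTCNNNGAA, to TTGGC, which is one arm of the site of the nuclear factor I family, and to the TATA box letters TATAAA.
Mlc1: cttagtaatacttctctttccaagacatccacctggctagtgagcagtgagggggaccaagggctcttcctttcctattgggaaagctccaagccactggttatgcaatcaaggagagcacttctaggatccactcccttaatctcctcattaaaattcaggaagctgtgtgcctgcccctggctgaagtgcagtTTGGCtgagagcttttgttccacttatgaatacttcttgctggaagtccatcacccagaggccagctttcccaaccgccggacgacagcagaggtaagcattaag
S100b: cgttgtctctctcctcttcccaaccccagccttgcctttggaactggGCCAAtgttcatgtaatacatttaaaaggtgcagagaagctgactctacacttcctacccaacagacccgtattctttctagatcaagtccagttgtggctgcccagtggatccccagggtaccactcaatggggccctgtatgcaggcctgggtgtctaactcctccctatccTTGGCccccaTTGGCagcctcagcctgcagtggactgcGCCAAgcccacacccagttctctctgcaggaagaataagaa
Gfap: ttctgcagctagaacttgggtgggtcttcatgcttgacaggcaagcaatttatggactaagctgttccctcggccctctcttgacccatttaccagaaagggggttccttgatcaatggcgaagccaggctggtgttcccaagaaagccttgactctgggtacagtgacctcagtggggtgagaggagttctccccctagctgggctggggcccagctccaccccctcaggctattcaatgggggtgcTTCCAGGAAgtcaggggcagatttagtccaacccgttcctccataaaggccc
The window of Gfap held 1 STAT match, which begins 2 bases before the annotated start and runs across it, and no match to the other motifs. Those of S100b and Mlc1 held 4 and 1 matches to TTGGC and none to the other motifs, and no match overlapped another. Over 32851 windows of this length, 8.3% held a STAT match, 46.7% a TTGGC match and 13.6% a TATA match. Each of the 3 windows had 3 CpG dinucleotides, against a median of 7 over all windows. Windows of 7 of the 10 genes were matched by symbol. The arrays measured transcripts and not binding, so the matches are a description of the letters.

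Signals are linear intensities with no unit, and they compare 1 probe set across arrays, not 1 gene with another. A floor of 103.91 was set from probe sets of odorant, vomeronasal and taste receptors, genes of sensory cells. Signals under it were raised to it before any fold, so a fold against an array under the floor is a lower bound and is written "at least". A gene was called higher or lower when 2 arrays were 4-fold or more apart and the brighter of them passed the floor. The induced arrays served as a yardstick: among 9311 genes above the floor in both, 95% lay within 2.32-fold of each other. They are different samples, so this is no replicate error. Hybridization controls, foreign transcripts spiked into every sample, were lower on the NSC array by 1.85-fold against MEF, 2.11-fold against iNSC_13F and 1.86-fold against iNSC_14F. Scaling the arrays to them moved the median of all genes between NSC and MEF from -0.01 to 0.80 (log2), between iNSC_13F and NSC from 0.30 to -0.65, and between iNSC_14F and NSC from 0.33 to -0.48. Differences against NSC are to be read beside these medians. The labelled cell types were checked on fixed markers. All 9 fibroblast markers were above the floor on MEF and 1 on NSC, 6 on iNSC_13F and 4 on iNSC_14F, and of 8 neural stem cell markers 3 were above it on MEF, 8 on NSC and 7 on each induced array. In bulk RNA, fewer cells that express a gene and less RNA in each cell cannot be told apart.

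The markers did not move as a block. Sparcl1 and Mlc1 were at least 4-fold higher than in fibroblasts on all 3 neural arrays, Aldh1l1 reached that size in NSC, and S100b reached it in the induced cells and, with scaling to hybridization controls, in NSC too (2.77, log2). Gja1 and Clu were present in every population and were not called anywhere. Gfap and Aqp4 stayed near the floor or under it. Of the 10 genes, 4 were above the floor on MEF and 8 on each of the other arrays. Against MEF, 3 of 9 measured members passed 4-fold upwards on NSC, as did 6.09% of all genes. On iNSC_13F these were 3 of 9 beside 3.66%, and on iNSC_14F 3 of 9 beside 4.49%. None was at least 4-fold lower, where 7.21%, 9.27% and 8.03% of all genes were. The medians of the measured members were 1.05, 0.37 and 1.28 (log2), beside -0.01, 0.09 and 0.10 over all genes. When both arrays had to pass the floor, which leaves out those dim in MEF, the medians had the opposite sign, -0.66, -0.50 and -0.37, beside 0.07, 0.16 and 0.21 over all genes. With a pseudocount of 16 and no floor they were 2.30, 2.28 and 2.36. Bounds make up 6 of the 9 values in each of these comparisons, which share the MEF array.

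**Figure D1:**
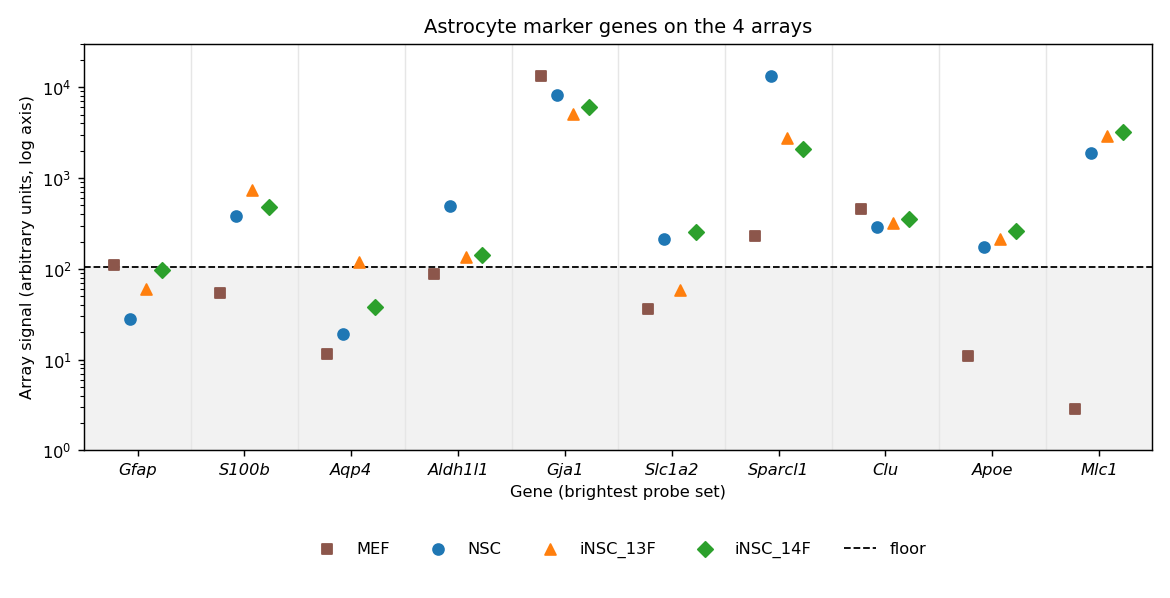
Array signal of the brightest probe set of each astrocyte marker gene (log axis, arbitrary units), 1 point per array, with the floor of 103.91 as a dashed line and the range under it shaded. Mlc1, S100b and Apoe lie under the floor on MEF and above it on the other 3 arrays, Sparcl1 is highest on NSC, and Gja1 and Clu are above the floor on all 4.

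Gfap encodes the intermediate filament protein that defines mature and reactive astrocytes. Its brightest probe set had a signal of 109 on MEF, 28.1 on NSC, 60.7 on iNSC_13F and 96.9 on iNSC_14F. Only the fibroblast signal passed the floor, by 1.05-fold. The other 2 probe sets were far under the floor everywhere, between 0.46 and 15.5. The floor is that of MEF, the highest of the 4 arrays. Against the receptor percentile of its own array, Gfap was above it on iNSC_14F (70.9) and MEF (103.9) and below it on NSC (37.1) and iNSC_13F (99.4). With quantile normalization MEF fell under the common floor of that setting and only iNSC_14F passed it. The log2 difference of iNSC_14F from MEF was then a bound of 0.11. Other filament genes of the same cells were well above the floor. Vim, the vimentin gene of progenitors and mesenchyme, had signals of 53269 on MEF, 28487 on NSC, 49531 on iNSC_13F and 45526 on iNSC_14F. Nes, the nestin gene of neural stem cells, had 1022 on MEF, 1596 on NSC, 1913 on iNSC_13F and 1682 on iNSC_14F, so the fibroblasts held it too. Of 9 filament genes, 8 were measured against MEF on NSC, 7 on iNSC_13F and 6 on iNSC_14F. Ina, at least 8.80-fold higher in iNSC_13F than in MEF, was the 1 called higher. Des, the muscle filament gene, was the 1 called lower on each array. It was at least 6.57-fold lower in NSC and in iNSC_14F and 4.82-fold lower in iNSC_13F. Among all genes 6.09%, 3.66% and 4.49% were higher and 7.21%, 9.27% and 8.03% lower, so the lower counts are near the background. The medians of the list against MEF were 0.04, -0.07 and -0.15.

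S100b encodes a calcium-binding protein of astrocytes and early oligodendrocyte cells. Its signals were 54.3 on MEF, 382 on NSC, 733 on iNSC_13F and 482 on iNSC_14F. Against MEF the bound was 7.05-fold for iNSC_13F and 4.63-fold for iNSC_14F, both at least that much higher. For NSC it was 3.67-fold and thus just short of the call. The dimmer probe set of S100b ran the same way, with 26.1 on MEF, 163 on NSC, 412 on iNSC_13F and 248 on iNSC_14F, and it did not reach 4-fold against MEF on any array. Set against NSC, the brighter probe set was higher by 1.92-fold in iNSC_13F and by 1.26-fold in iNSC_14F, which turned to log2 differences of -0.13 and -0.56 with scaling to hybridization controls. Most of its relatives were lower than in fibroblasts. Of 7 S100 genes, 5 were at least 4-fold lower in NSC than in MEF and 4 on each induced array, beside 7.21%, 9.27% and 8.03% of all genes. The medians of these S100 genes were -2.33, -2.14 and -2.14. S100a4, a gene of fibroblasts and migrating cells, was lower by at least 166-fold on NSC, by 141-fold on iNSC_13F and by 65.1-fold on iNSC_14F. S100b was the only member of that list called higher, on both induced arrays.

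Mlc1 encodes a membrane protein of astrocyte endfeet, the processes that cover blood vessels, and its loss causes a leukodystrophy with swollen white matter. Its signals were 2.85 on MEF, 1902 on NSC, 2926 on iNSC_13F and 3187 on iNSC_14F. No array lies between the fibroblast signal and the neural ones. It was at least 18.3-fold higher than MEF in NSC, at least 28.2-fold in iNSC_13F and at least 30.7-fold in iNSC_14F. The induced arrays were 1.54-fold and 1.68-fold above NSC, and the log2 differences of 0.62 and 0.74 became -0.45 and -0.15 with scaling to hybridization controls. Mlc1 has 1 probe set. Hepacam, the adhesion protein that brings MLC1 to cell junctions, had signals of 12.2 on MEF, 657 on NSC, 1033 on iNSC_13F and 575 on iNSC_14F. The bounds against MEF were 6.32-fold, 9.95-fold and 5.54-fold in that order. Atp1b2, a subunit of the sodium pump of glia, was at least 8.25-fold higher in NSC, at least 6.70-fold in iNSC_13F and at least 21.5-fold in iNSC_14F. Cav1, the caveolin gene, was highest in fibroblasts, with 10563 on MEF, 205 on NSC, 575 on iNSC_13F and 214 on iNSC_14F. Of the 7 genes read in this list, Mlc1 included, 5 were measured on NSC, 5 on iNSC_13F and 6 on iNSC_14F. Mlc1, Hepacam and Atp1b2 were the 3 called higher on each neural array, and Cav1 was the 1 called lower. The 3 called higher were under the floor on MEF and entered through the neural arrays. They could only be higher, so the counts are a description. Among all genes 6.09%, 3.66% and 4.49% were called higher and 7.21%, 9.27% and 8.03% lower. The medians of the list were 2.66, 2.74 and 1.51, and they depend on the floor. With the 75th percentile they were 0.49, 0.17 and 0.84, and with a pseudocount of 16 and no floor 4.58, 4.74 and 2.54.

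Aqp4 encodes the water channel of astrocyte endfeet. Its brightest probe set gave 11.7 on MEF, 19.2 on NSC, 118 on iNSC_13F and 38.0 on iNSC_14F. Only iNSC_13F passed the floor, by 1.14-fold, and the other 2 probe sets lay between 1.96 and 34.4 on the 4 arrays. Potassium channels of the same endfeet were measured. Kcnj10, which takes up potassium around neurons, had signals of 21.6 on MEF, 406 on NSC, 290 on iNSC_13F and 626 on iNSC_14F, and was at least 6.02-fold higher in iNSC_14F than in MEF. Kcnj16, its partner subunit, reached 474 in NSC and was under the floor on the other 3 arrays, which is at least 4.56-fold higher in NSC. The dystrophin gene Dmd, whose short product anchors AQP4, was 8.52-fold higher in NSC than in MEF and lower than in NSC by 11.4-fold in iNSC_13F and by 6.34-fold in iNSC_14F. In this list of 10 genes, 3 of 8 measured were called higher and 1 lower on NSC, 0 of 8 and 1 on iNSC_13F, and 1 of 7 and 1 on iNSC_14F. Among all genes 6.09%, 3.66% and 4.49% were higher and 7.21%, 9.27% and 8.03% lower, so the counts of iNSC_13F are near the background. The medians of the list against MEF were 1.22 on NSC, 0.19 on iNSC_13F and 0.43 on iNSC_14F.

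**Figure D2:**
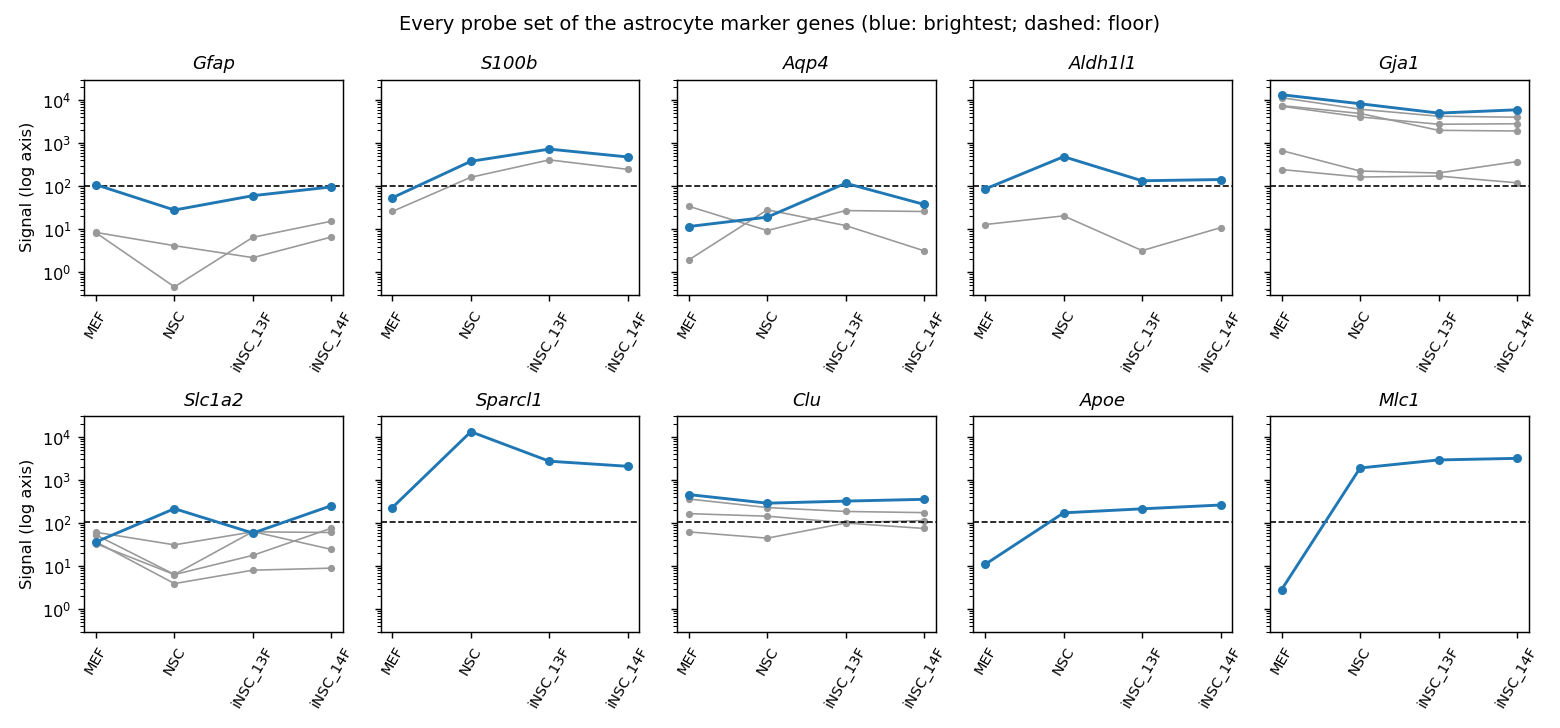
Signals (log axis) of all 28 probe sets of the astrocyte marker genes on the 4 arrays, 1 panel per gene, with the brightest probe set in blue and the floor dashed. The 6 probe sets of Gja1 are all highest on MEF, while those of Gfap, Aqp4 and Slc1a2 that are not the brightest lie under the floor on every array.

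Gja1 encodes connexin 43, the main gap junction protein of astrocytes, which fibroblasts also make in quantity. The signals of its brightest probe set were 13439.9 on MEF, 8299.9 on NSC, 5036 on iNSC_13F and 6005 on iNSC_14F. All 6 probe sets were lower than MEF on each of the 3 neural arrays, and none by 4-fold. For the brightest the differences were 1.62-fold in NSC, 2.67-fold in iNSC_13F and 2.24-fold in iNSC_14F. The log2 difference of -0.70 between NSC and MEF turned to 0.19 with scaling to hybridization controls, whereas those of the induced arrays, -1.42 and -1.16, became -1.60 and -1.17. Against NSC 5 of 6 probe sets were lower on each induced array. Of the other connexins, Gjb2, found in fibroblasts and glia, had a signal of 2634 in MEF and was under the floor on the neural arrays, at least 25.4-fold lower on each. Gjb6, the connexin of mature astrocytes, was under the floor everywhere, at 39.0 or less. Gjc1 was near equal, with 2073 on MEF, 2277 on NSC, 2538 on iNSC_13F and 2343 on iNSC_14F. Of 5 connexins measured, Gja1 included, Gjb2 was the 1 called lower and none was called higher on each neural array. By the same rule 7.21%, 9.27% and 8.03% of all genes were lower. The medians of the list against MEF were -0.70, -1.24 and -1.16. Of the 9 connexins read, 5 passed the floor on MEF and 2 on each neural array. The measured genes thus entered through MEF, and those under the floor elsewhere could only be lower, so the medians are a description.

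Slc1a2 encodes GLT-1, the transporter that clears most glutamate in the adult brain and that astrocytes acquire late. Of its 5 probe sets 1 passed the floor. That probe set had signals of 36.3 on MEF, 216 on NSC, 58.5 on iNSC_13F and 253 on iNSC_14F, so the induced arrays were at least 2.44-fold apart. The 2.32-fold yardstick comes from genes above the floor on both induced arrays. Slc1a2 is not among those genes, so the yardstick does not apply to it. Against MEF the bounds were 2.08-fold for NSC and 2.44-fold for iNSC_14F, and iNSC_13F was under the floor like MEF. The other 4 probe sets lay between 3.92 and 75.8. A further probe set assigned to Slc1a2 and to a neighbouring locus together was not used, and it was at 44.2 or less. Slc1a3, which encodes GLAST, the transporter of radial glia and young astrocytes, was far above background, with 54.0 on MEF, 4619 on NSC, 2416 on iNSC_13F and 3582 on iNSC_14F. Its bounds against MEF were 44.5-fold, 23.3-fold and 34.5-fold. Glul, the glutamine synthetase that turns the glutamate taken up into glutamine, was 7.10-fold, 8.93-fold and 7.33-fold higher than MEF. The glutamine transporter Slc38a3 had bounds of 5.83-fold, 13.9-fold and 20.9-fold. These 3 genes were the ones called higher in the list on each array, of 10 measured in NSC and 9 on each induced array, and none was called lower. By the same rule 6.09%, 3.66% and 4.49% of all genes were higher and 7.21%, 9.27% and 8.03% lower. The list's medians against MEF were 0.60, -0.06 and 0.39.

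Aldh1l1 encodes a folate enzyme used as a general astrocyte marker. Its signals were 86.8 on MEF, 489 on NSC, 135 on iNSC_13F and 144 on iNSC_14F. NSC stands alone and the induced arrays lie little above the floor. NSC was at least 4.71-fold above MEF, and with a floor at the 99th percentile the bound was 1.42 (log2), short of the call. The induced arrays were 3.63-fold and 3.40-fold below NSC, which is past the yardstick and short of the call, and with scaling to hybridization controls the log2 differences of -1.86 and -1.77 became -2.94 and -2.66. The second probe set was under the floor on all arrays, at 20.6 or less. Other enzymes of the same metabolism lay on both sides of MEF. Gldc, the glycine-cleaving enzyme of glia, had signals of 30.2 on MEF, 2075 on NSC, 2431 on iNSC_13F and 3125 on iNSC_14F, with bounds of 20.0-fold, 23.4-fold and 30.1-fold against MEF. Shmt1, which makes one-carbon units from serine, was higher than MEF by 6.95-fold in iNSC_13F and by 4.65-fold in iNSC_14F. Aldh1l2, the mitochondrial relative of Aldh1l1, was 4.38-fold lower in NSC, 17.3-fold in iNSC_13F and 5.90-fold in iNSC_14F. Of the folate genes, 2 of 11 measured were called higher on NSC and 2 of 12 on each induced array, with 1 lower on each. Higher were 6.09%, 3.66% and 4.49% of all genes and lower 7.21%, 9.27% and 8.03%, so the lower counts are near the background. The medians of the list against MEF were -0.23, 0.55 and 0.47, and that of NSC was 0.74 with scaling to hybridization controls.

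Sparcl1 encodes hevin, a protein secreted by radial glia and astrocytes that promotes synapses. It had signals of 229.6 on MEF, 13233 on NSC, 2734 on iNSC_13F and 2082 on iNSC_14F. The induced arrays lay between the references. They were 11.9-fold and 9.07-fold above MEF, while NSC was 57.6-fold above it. Sparcl1 was the 1 member called between an induced array and NSC, 4.84-fold lower in iNSC_13F, where 11.3% of all genes were called lower, and 6.36-fold lower in iNSC_14F, where 9.40% were. With scaling to hybridization controls Aldh1l1 joined it, and the log2 differences of Sparcl1, -2.27 and -2.67, became -3.35 and -3.57. No member was called higher than NSC, where 1.07% and 1.42% of genes were. The related gene Sparc, a matrix protein of fibroblasts, ran in the opposite direction between the references, with 47389 on MEF, 3866 on NSC, 6792 on iNSC_13F and 7795 on iNSC_14F. Smoc1, with 377 on MEF, 2040.1 on NSC, 3515 on iNSC_13F and 4971 on iNSC_14F, was the other family member called higher than MEF on each neural array. Sparc, Smoc2 and Fstl1 were the 3 called lower on each, of 6 measured. Against MEF 6.09%, 3.66% and 4.49% of all genes were higher and 7.21%, 9.27% and 8.03% lower. The 8 genes had medians of -1.76, -0.74 and -0.44 against MEF.

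Clu encodes clusterin, an extracellular chaperone and apolipoprotein. Its brightest probe set had signals of 459 on MEF, 289 on NSC, 323 on iNSC_13F and 356 on iNSC_14F, and no 2 of the 4 differed by as much as 2.32-fold. All 3 measured probe sets were lower than MEF on each neural array, by at most 2.07-fold. For the brightest the difference of -0.66 (log2) between NSC and MEF was 0.22 with scaling to hybridization controls. Apoe encodes the main lipid carrier that astrocytes secrete. It had signals of 10.99 on MEF, 173 on NSC, 214 on iNSC_13F and 262 on iNSC_14F, on 1 probe set. All 3 neural arrays passed the floor and the fibroblasts did not, and the bounds against MEF were 1.66-fold, 2.06-fold and 2.52-fold. Without a floor and with a pseudocount of 16 the log2 differences were 2.81, 3.09 and 3.37, so the size of this difference rests on the treatment of dim signals. Genes that load and break down such particles were read beside Apoe. Abca1, which exports cholesterol to APOE, had signals of 714 on MEF, 743 on NSC, 137 on iNSC_13F and 62.8 on iNSC_14F. Relative to NSC it was lower by 5.44-fold in iNSC_13F and by at least 7.15-fold in iNSC_14F. Lpl, the lipoprotein lipase gene, was at least 8.62-fold and 7.38-fold lower than in NSC. Of 12 lipid transport genes measured in each of these comparisons, these 2 were called, both lower, beside 11.3% and 9.40% of all genes called lower, so the share of the list is near that of all genes. The medians were 0.19 and 0.33, against -0.72 and -0.54 with scaling to hybridization controls.

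**Figure D3:**
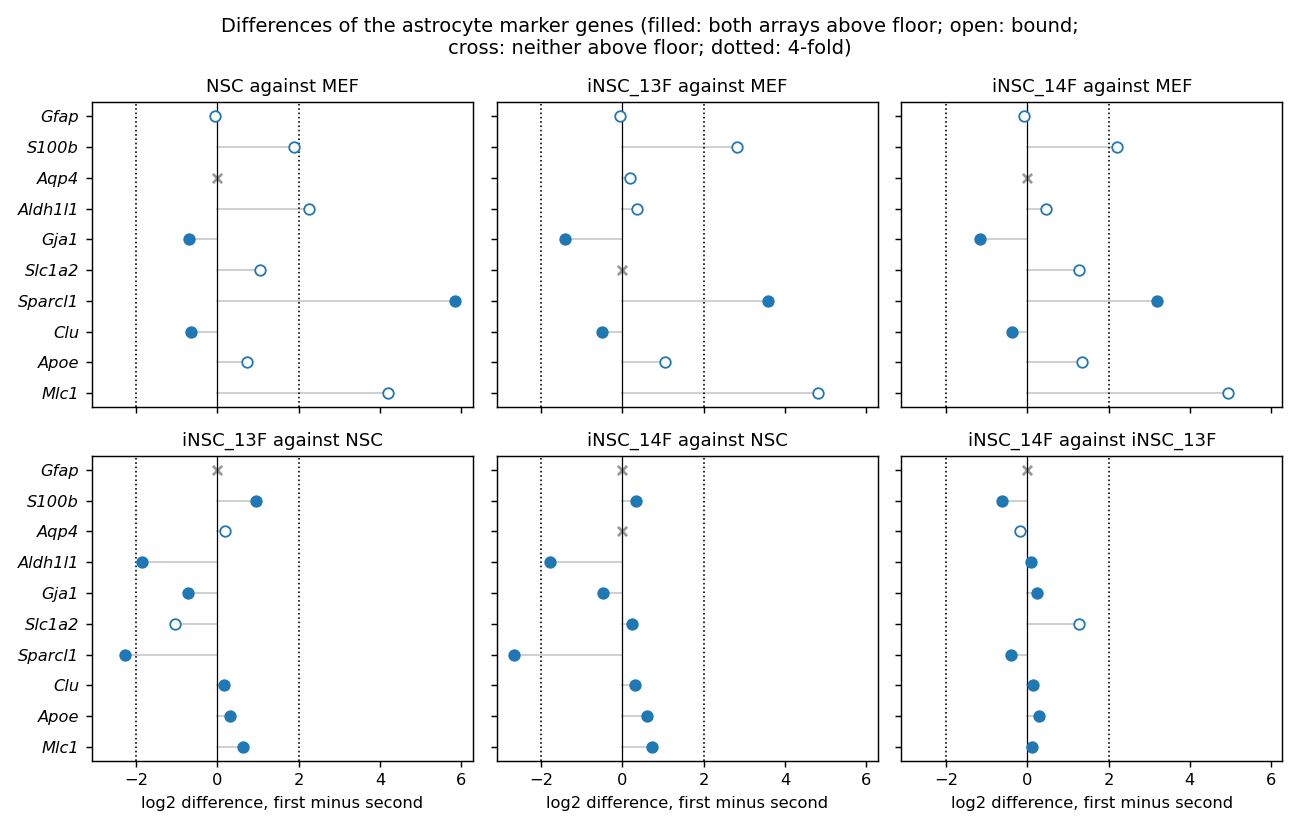
The log2 difference of each astrocyte marker gene in the 6 comparisons, first array minus second, with filled points where both arrays were above the floor, open points for bounds and crosses where neither was above it. Dotted lines mark 4-fold; Sparcl1 lies outside them in every comparison with MEF or NSC, and no gene does between the induced arrays.

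The 13-factor and 14-factor cells did not differ by 4-fold in any of the 9 members measured. By the same rule 0.500% of all genes were higher in iNSC_14F and 0.342% lower. Slc1a2, at least 2.44-fold higher in iNSC_14F, was the largest difference among the brightest probe sets. S100b was 1.52-fold lower in iNSC_14F and Sparcl1 1.31-fold lower, while Mlc1, Gja1 and Apoe were 1.09-fold, 1.19-fold and 1.23-fold higher. The last 5 lie inside the 2.32-fold yardstick.

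A wider list of 50 astrocyte genes, of which 49 could be read, gave the setting of the 10. Against MEF, 13 of 40 measured genes were called higher on NSC and 5 lower, 9 of 34 higher and 7 lower in iNSC_13F, and 12 of 37 higher and 6 lower in iNSC_14F. Beside these counts, 6.09%, 3.66% and 4.49% of all genes were higher than MEF and 7.21%, 9.27% and 8.03% lower. The medians of the wider list were 1.20, 0.50 and 0.91. Of the 49 read, 23 passed the floor on MEF, 34 on NSC, 27 on iNSC_13F and 31 on iNSC_14F. Genes under it on MEF entered through a neural array and could only be higher, and those under it there only lower. The counts and medians are thus a description. Aldoc, an aldolase of glia, had signals of 147 on MEF, 4520.3 on NSC, 17206 on iNSC_13F and 28303 on iNSC_14F. Slc25a18, a mitochondrial glutamate carrier, had 51.0 on MEF, 1684 on NSC, 2499.7 on iNSC_13F and 5016 on iNSC_14F. Neither was under the floor on a neural array. Ppp1r3c, which directs glycogen synthesis, separated the induced arrays, with 18.3 on MEF, 462 on NSC, 694 on iNSC_13F and 9611 on iNSC_14F, a 13.8-fold difference between the last 2. Other genes of the list were far higher in NSC than in the induced cells. Ednrb, an endothelin receptor of glia, had 5003 on NSC, 87.0 on iNSC_13F and 140.2 on iNSC_14F. Gabrg1, a GABA receptor subunit, had 1272 in NSC and was under the floor on both induced arrays. Against NSC, 7 of 36 genes were lower and none higher in iNSC_13F, and 4 of 38 were lower and 4 higher in iNSC_14F. Of all genes 11.3% and 9.40% were lower and 1.07% and 1.42% higher, so the 4 lower in iNSC_14F are near the background. The medians of 0.18 and 0.50 turned to -0.63 and -0.33 with scaling to hybridization controls.

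Genes that carry the signals for making astrocytes were then read. Of the cytokine and BMP pathway list, 1 of 23 measured genes was higher and 4 lower in NSC than in MEF, and 0 higher and 6 lower in iNSC_13F (24 measured) and in iNSC_14F (23 measured). Beside these counts, 6.09%, 3.66% and 4.49% of all genes were higher and 7.21%, 9.27% and 8.03% lower. Of the 25 genes read, 22 passed the floor on MEF, 16 on NSC, 20 on iNSC_13F and 17 on iNSC_14F. The medians of the list were -0.63, -0.50 and -1.03, and that of NSC was 0.21 with scaling to hybridization controls. Lifr, the receptor of LIF, had signals of 371 on MEF, 3099.9 on NSC, 290.2 on iNSC_13F and 343 on iNSC_14F. The induced arrays were below NSC by 10.7-fold and 9.03-fold. Bmpr1a, a BMP receptor gene, had 1497 on MEF, 4208 on NSC, 221 on iNSC_13F and 383 on iNSC_14F. Bmpr2, which encodes its partner, was below NSC by 14.4-fold on iNSC_13F and by 10.3-fold on iNSC_14F. Il6st, the shared signalling chain of these cytokine receptors, had 1573 on MEF, 544 on NSC, 407 on iNSC_13F and 505 on iNSC_14F. Stat3 itself stayed high, with 2177 on MEF, 1083 on NSC, 3224 on iNSC_13F and 1993 on iNSC_14F. Socs3, a feedback target of STAT3, was 6.28-fold lower in NSC and 11.2-fold lower in iNSC_14F than in MEF. Against NSC, 6 of 20 genes were lower in iNSC_13F and 6 of 18 in iNSC_14F, with none higher. Lower were 11.3% and 9.40% of all genes and higher 1.07% and 1.42%, so the lack of higher genes is near the background. The medians of the list, 0.20 and 0.11, became -0.88 and -0.79 with scaling to hybridization controls.

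Transcription factors of the gliogenic switch were mostly present on all 4 arrays. Of 25 read, 19 passed the floor on MEF, 22 on NSC, 22 on iNSC_13F and 24 on iNSC_14F. Of that list 9 of 24 measured genes were higher in NSC than in MEF and 3 lower, 8 of 23 and 1 in iNSC_13F, and 11 of 25 and 2 in iNSC_14F. Over all genes 6.09%, 3.66% and 4.49% were higher and 7.21%, 9.27% and 8.03% lower, so the lower counts of the induced arrays do not exceed the background. The medians of the list were 0.85, -0.10 and 0.67, beside -0.01, 0.09 and 0.10 over all genes. Nfia, which opens astrocyte genes, had signals of 192 on MEF, 3579.5 on NSC, 1947 on iNSC_13F and 3142 on iNSC_14F. Sox9, its partner, had 303 on MEF, 1802 on NSC, 2666 on iNSC_13F and 1748 on iNSC_14F. Nfib was highest in NSC, at 5629.9 against 832 in MEF, 573 in iNSC_13F and 1058 in iNSC_14F. The induced arrays were below NSC by 9.83-fold and 5.32-fold. Against NSC, 2 of 23 measured genes of the list were lower and 0 higher in iNSC_13F. In iNSC_14F 2 of 24 were lower and 4 higher. Of all genes 11.3% and 9.40% were lower and 1.07% and 1.42% higher, so the lower counts are near the background. Pou3f4, Hey1 and Notch1 were 6.94-fold, 6.14-fold and 5.24-fold higher in iNSC_14F than in NSC. The medians of the list, 0.57 and 0.71, became -0.51 and 0.06 with scaling to hybridization controls. Hes5, a Notch target, was under the floor in MEF and had 209 on NSC, 36.6 on iNSC_13F and 1084 on iNSC_14F, at least 10.4-fold apart between the induced arrays. DNA and histone methylation keep Gfap shut in early neural precursors. Of the genes listed for it, 2 of 12 were higher in NSC than in MEF, and against NSC 4 of 11 were lower in iNSC_13F and 2 of 12 in iNSC_14F, beside 6.09% of all genes higher in the first comparison and 11.3% and 9.40% lower in the others. The medians of 0.78, 0.30 and 0.54 became 1.66, -0.77 and -0.36 with scaling to hybridization controls. Suz12, a Polycomb subunit, was lower than in NSC by 11.7-fold in iNSC_13F and by 6.93-fold in iNSC_14F. Tet1, which starts DNA demethylation, was lower by at least 8.52-fold and by 4.46-fold. Dnmt1, the maintenance methyltransferase, was not called in any comparison, with 1902 on MEF, 3087 on NSC, 4823 on iNSC_13F and 6825 on iNSC_14F.

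Genes reported in reactive astrocytes, the state taken on after injury, were often lower on the neural arrays than in fibroblasts. Of 25 measured genes 13 were at least 4-fold lower and 1 higher in NSC, 13 of 24 were lower and 0 higher in iNSC_13F, and 13 of 25 were lower and 0 higher in iNSC_14F. By the same rule 7.21%, 9.27% and 8.03% of all genes were lower and 6.09%, 3.66% and 4.49% higher. The medians of the list were -2.23, -2.15 and -2.16. Many of these genes are also made by fibroblasts. Of the 35 read, 24 passed the floor on MEF and 11 on NSC, 14 on iNSC_13F and 12 on iNSC_14F, so most measured genes entered through MEF, where they are high, and the counts are a description. When both arrays had to pass the floor, the medians were -1.28, -1.85 and -1.73. Fbln5, a matrix protein, was at least 129-fold lower on each neural array, and Timp1, an inhibitor of matrix proteases, had 19167 on MEF, 459.7 on NSC, 1219 on iNSC_13F and 865 on iNSC_14F. Lcn2 and Serpina3n, which are strongly induced in reactive astrocytes, were under the floor everywhere, at 41.3 or less. The 1 gene higher in NSC was B3gnt5, a glycosyltransferase, with 2006 in NSC against 474 in MEF, 68.5 in iNSC_13F and 84.6 in iNSC_14F.

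**Figure D4:**
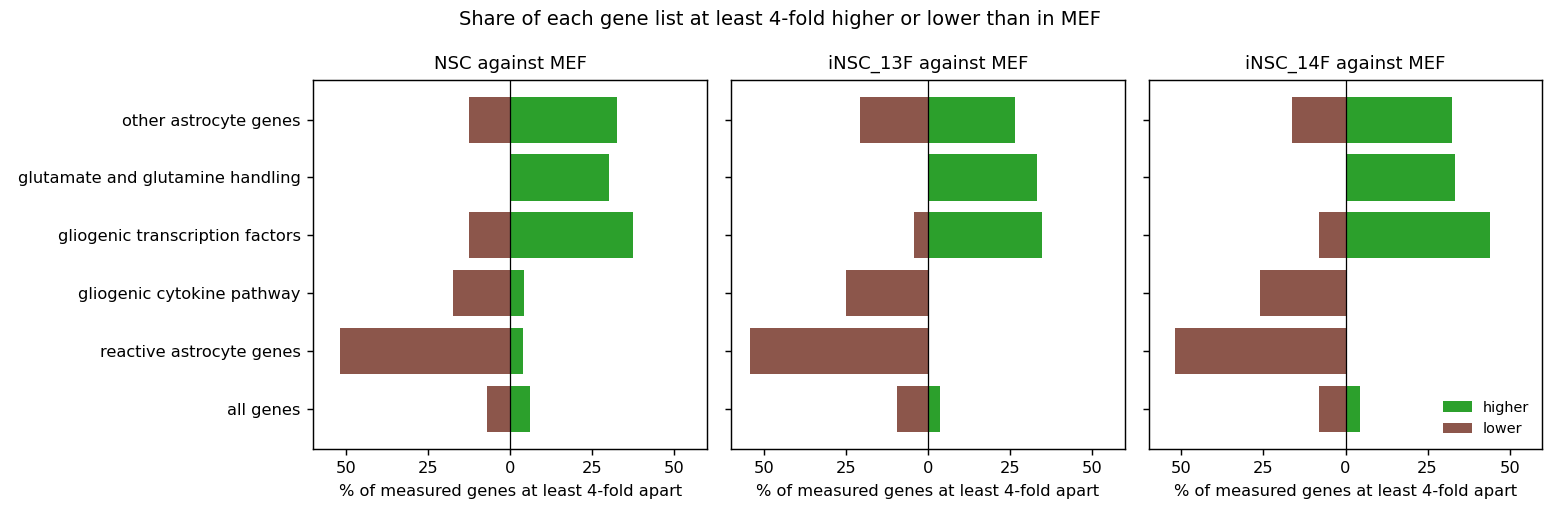
Share of the measured genes of 5 lists, and of all genes, that were at least 4-fold higher (to the right) or lower (to the left) than in MEF, 1 panel per neural array. The reactive astrocyte genes lie mostly to the left with 13 lower on each array, and the other astrocyte genes lie on both sides, with 13, 9 and 12 higher and 5, 7 and 6 lower.

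Markers of other cell types were read on the same arrays. Of 5 oligodendrocyte markers none was above the floor on MEF or NSC and 1 on each induced array, Mbp at 131.0 in iNSC_13F and Sox10 at 109 in iNSC_14F, and their summed signals were 187, 115, 198 and 217 in the order of the arrays. No hepatocyte marker of 6 was above the floor on any array, with sums from 66.4 to 185. Of 6 microglia markers 1, Csf1r, passed it, on MEF and both induced arrays. Of 5 B lymphocyte markers 1 passed it on each array, and this was Ebf1, with 513 on MEF, 549 on NSC, 462 on iNSC_13F and 183 on iNSC_14F. Foxj1, at 169 in iNSC_14F, was the 1 of 4 ependymal markers to pass. Neuron markers were above the floor for 2 of 7 on MEF, 3 on NSC, 4 on iNSC_13F and 1 on iNSC_14F, with sums of 4008, 626, 676 and 362, and the highest were Stmn2 at 2770.3 and Tubb3 at 989.7, both on MEF. Fibroblast markers summed to 195406 on MEF, 395 on NSC, 4160.0 on iNSC_13F and 4214 on iNSC_14F, with Fn1 at 1954 on iNSC_13F and 3534 on iNSC_14F and Twist1 at 1241 on iNSC_13F against 1638 on MEF. The part of these cell types in the differences of the astrocyte markers was not tested. Of 8 housekeeping genes, 1 was called against MEF on each induced array and none elsewhere. This was B2m, lower by 4.23-fold in iNSC_13F and by 4.64-fold in iNSC_14F. Beside it, 9.27% and 8.03% of all genes were called lower, so the count is near the background.

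The genes most like each marker were taken by the distance between profiles over the 4 arrays, each centred on its own mean log2 signal, which describes these arrays and no more. For Mlc1 the nearest were Atp6v0e2 (distance 0.249), Syt11 (0.255) and Acot1 (0.275). Sparcl1 had looser neighbours, Car3 (0.341), Neto1 (0.575) and Rufy3 (0.881). Aldh1l1 lay close to Psip1 (0.037), Tpmt (0.074) and Spred1 (0.164), S100b to Dok7 (0.130), Pou6f1 (0.144) and Rassf3 (0.170), and Slc1a2 to Fbxo16 (0.073), Ncoa1 (0.137) and Aasdh (0.144). Gja1 was nearest to the chaperone gene Hspa5 (0.072), then Lratd2 (0.086) and Abcg2 (0.139). Clu was nearest to Eya3 (0.059), Homer3 (0.064) and Smyd1 (0.065), and Apoe to Actr5 (0.043), Bmyc (0.048) and Aunip (0.072). Among the markers themselves the closest pair above the floor on all 4 arrays was Gja1 and Clu (0.843), and Gja1 and Mlc1 (5.081) were the farthest apart of all pairs. The floor enters these distances for every marker that was under it on an array. S100b, Aldh1l1, Apoe and Mlc1 were raised to it on MEF, and Slc1a2 on MEF and iNSC_13F, so genes with higher MEF signals can stand near them: Actr5 had 135 on MEF and Atp6v0e2 165. Gfap and Aqp4 had 1 array above the floor each, and their neighbours are not given.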

How the data were processed

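Total RNA of 4 mouse cell samples was read on Affymetrix Mouse Genome 430 2.0 arrays, 1 per group, and groups follow the labelled cell type. The source names, all embryonic stem cells, were set aside because they go against it. The deposited intensities are linear signals, 1 per probe set, made with MAS5 per the submitters' processing notes, with settings not given in the sources used here. Their 2% trimmed mean was 500 on the MEF array, the only array on which it was taken. No further scaling was applied in the main setting.

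Of 45101 probe sets, 34945 had 1 named gene through the platform annotation, 34741 of them updated by gene ID, 932 had several and 9211 none. The brightest probe set, by mean log2 signal after the floor, stood for its gene. The floor was the 95th percentile of 86 receptor probe sets on the array where it was highest. Its values were 103.9 on MEF, 37.1 on NSC, 99.4 on iNSC_13F and 70.9 on iNSC_14F. With 1 array per group no test between groups was run, and a fixed rule of 4-fold was used in 6 comparisons. The code that applies the rule was checked on simulated arrays, and no value of that check is used. All members, up to 4 called genes per list and comparison, and the 3 nearest genes of a member could be named, with any marker. Members of the lists beyond these were named after their values were seen (Vim, Nes, Gjb6, Gjc1, Kcnj10, Il6st, Stat3, Sox9, Dnmt1, Timp1, Lcn2, Serpina3n and others). The members and lists were chosen with earlier results of these data known. Alternatives were quantile normalization, scaling to hybridization controls, floors at the 75th and 99th percentile, a pseudocount of 16 in place of a floor, medians over the probe sets of each gene, dropping those ending in _s_at or _x_at, and only genes that passed the floor on both arrays. Python 3.11.15, numpy 2.4.6, pandas 2.3.3 and scipy 1.17.1 were used.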

Additional observations from a re-analysis of the deposited data

Results flagged for a closer look

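The difference of Slc1a2 from NSC had opposite signs in the induced samples. The log2 difference was -1.05 for iNSC_13F, a bound because that array was under the floor, and 0.23 for iNSC_14F. The difference between them was not tested, since each is 1 array, and the sign of iNSC_14F was -0.67 with scaling to hybridization controls.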

How the results depend on the processing

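No called difference of a member changed its sign under an alternative. Over 364 values of members under the alternatives, 345 stayed on their side of the 4-fold rule, 3 no longer passed it and 16 newly passed it. The count of members higher than in MEF was 3 for each neural array. With a floor at the 75th percentile Apoe newly passed in iNSC_13F (2.10, log2), and the count became 5 in NSC and 5 in iNSC_14F. With no floor and a pseudocount of 16 it was 6 in NSC, 5 in iNSC_13F and 5 in iNSC_14F. Scaling to hybridization controls made it 4 in NSC. It was 1 on each array when both arrays had to pass the floor, which leaves out genes dim in MEF, and that gene was Sparcl1. It was 2 in NSC and 2 in iNSC_14F with a floor at the 99th percentile and also with medians over probe sets, where Aldh1l1 had no value in NSC. The count lower than in NSC was 1 and became 2 on both induced arrays with scaling to hybridization controls. Between the induced arrays, 1 member, Slc1a2, was higher in iNSC_14F with a floor at the 75th percentile, against 0. Aldh1l1 in NSC and S100b in iNSC_14F missed 4-fold against MEF with a floor at the 99th percentile (1.42 and 1.40, log2), and so did S100b in iNSC_14F with the median of its probe sets (1.73). The share of all genes called higher in NSC than in MEF was 16.5% and lower 4.39% with scaling to hybridization controls, and lower than NSC it was 20.3% in iNSC_13F and 17.1% in iNSC_14F. Of 903 medians of lists or of all genes under the alternatives, 131 moved by more than the SD of differences between the induced arrays. No paired analysis was possible because each group holds 1 array. Leaving out a replicate was not possible for the same reason. Signal over background limits Gfap, Aqp4, Apoe and Slc1a2, whose differences are bounds near the floor.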
